A study of Mus musculus with 6 samples.

Results

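The 10 crystallin genes Cryaa, Cryab, Cryba1, Cryba2, Crybb2, Crybb3, Crygb, Crygd, Crygn and Crygs were described in retinal RNA by their make-up and their transcript forms. They were selected on the contrast described here, as crystallins found higher after SCF in these libraries, so their levels, shares and fold changes are a description with no test. They are 10 of the 31827 genes with a symbol in the files, and 27 of the 63428 Ensembl transcripts listed there belong to them.

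RNA-seq was performed on retinas of wild type mice, C57BL/6 and 5 weeks old by the labels (C57BL/6J in the study's methods), in 3 NMDA + PBS and 3 NMDA + SCF libraries. All mice received 2 μl of 100 mM NMDA, a glutamate receptor agonist that injures retinal ganglion cells, in the vitreous. At 2 days after NMDA they received 2 μl of PBS or of 50 ng/μl SCF, the ligand of c-kit, and retinas were collected 1 week after that injection. How many mice stand behind a library is not stated, so the spread between libraries may be partly technical.

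Crystallins are the abundant soluble proteins of the lens. The α-crystallins are small heat shock proteins that keep other proteins from aggregating. The β- and γ-crystallins share one fold, pack densely in lens fiber cells, and are also detected at low levels in the retina.

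Libraries are called PBS1, PBS2 and PBS3 (NMDA + PBS) and SCF1, SCF2 and SCF3 (NMDA + SCF) after the replicate number in the labels. Values were FPKM, in which the fragments of a transcript are divided by its length and by the fragments counted in the library. Counted fragments per library, recovered from FPKM and transcript length, ranged from 3404334 to 4440582. The files use 2 transcript lists. PBS1 and all NMDA + SCF libraries use list A, whereas PBS2 and PBS3 use list B. Of the 27 member transcripts, 18 stood in both lists, 4 were exclusive to A and 5 to B. Sums and shares below rest on those 18 unless list A is named.

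The forms differed between members before any level was considered. GENCODE M21 annotates 39 transcripts for the 10 genes, 25 of them protein coding. Only 6 spliced coding transcripts stood in all 6 files: Crygs-201, Crygb-201, Crygn-201, Cryba1-201, Cryba2-201 and Crybb2-202. The other 12 transcripts in both lists were 6 with a retained intron, 4 processed transcripts without a coding frame, 1 target of nonsense-mediated decay and 1 unspliced span. Cryaa, Cryab, Crybb3 and Crygd therefore had no spliced coding transcript that all libraries share.

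The unspliced span is Cryaa-204 (chr17:31677955-31679282, plus strand, GRCm38). M21 gives it 952 bases and a coding frame at another position. The FPKM values in the files became whole fragments, among the lengths tried, with 1328 bases, which is the full span in the files without splicing. It holds the whole of intron 1 and part of intron 2 of Cryaa-201, and 77.1% of its bases are intronic there. With M21's own label it would count as coding. For Crygs-201 (chr16:22805203-22811410, minus strand) the length that gave whole fragments was 708 bases, shorter than the 875 of M21.

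Sequences at the points where a form leaves the coding transcript show what separates the counts. For Cryba2, which encodes a β-crystallin of the acidic group, the decay target reads on into intron 2, and for Crygd, a γ-crystallin, the retained-intron form reads on past exon 2. Lower case letters are shared and capitals are particular to each form (M21, minus strand of chromosome 1).
Cryba2-201: ggtggaaaacggcgcATGGGTGGCCTTCGA
Cryba2-202: ggtggaaaacggcgcGTGAGTGATCCTGCT
Crygd-201: cgcctcatcccccacGCCGGCTCTCACAGG
Crygd-202: cgcctcatcccccacGTGAGTCCAGATTCT
Both intronic continuations begin with GTGAGT, the letters of a usual splice donor.

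Cryba1-202, a retained-intron form of the gene for βA3/A1-crystallin, instead starts inside intron 3 and joins the coding transcript at base 218 of Cryba1-201. Here the capitals come first and the shared bases follow (minus strand of chromosome 11).
Cryba1-201: GGTGGAGTGTGGCGCctggattggttatga
Cryba1-202: ACCTATTTTTGGCAGctggattggttatga
Of its 1377 bases, 58.4% lie in introns of Cryba1-201.

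In total the 18 member transcripts summed to 29.2, 334.7 and 315.1 FPKM in PBS1, PBS2 and PBS3. In SCF1, SCF2 and SCF3 the sums were 4996, 641.8 and 11139 FPKM. SCF1 and SCF3 stood far above the other libraries, whereas SCF2 was 1.92 times PBS2. As a share of all FPKM of a library, crystallins took between 0.00612 and 0.0810% after PBS and between 0.148 and 2.43% after SCF. PBS1, which uses list A like the NMDA + SCF libraries, had the lowest sum of all.

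The counts behind these sums were uneven. PBS1 had 64 member fragments and its shares are imprecise, while SCF3 had 27725. In bulk retina, more cells of a type and more RNA per cell cannot be told apart.

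**Figure D1:**
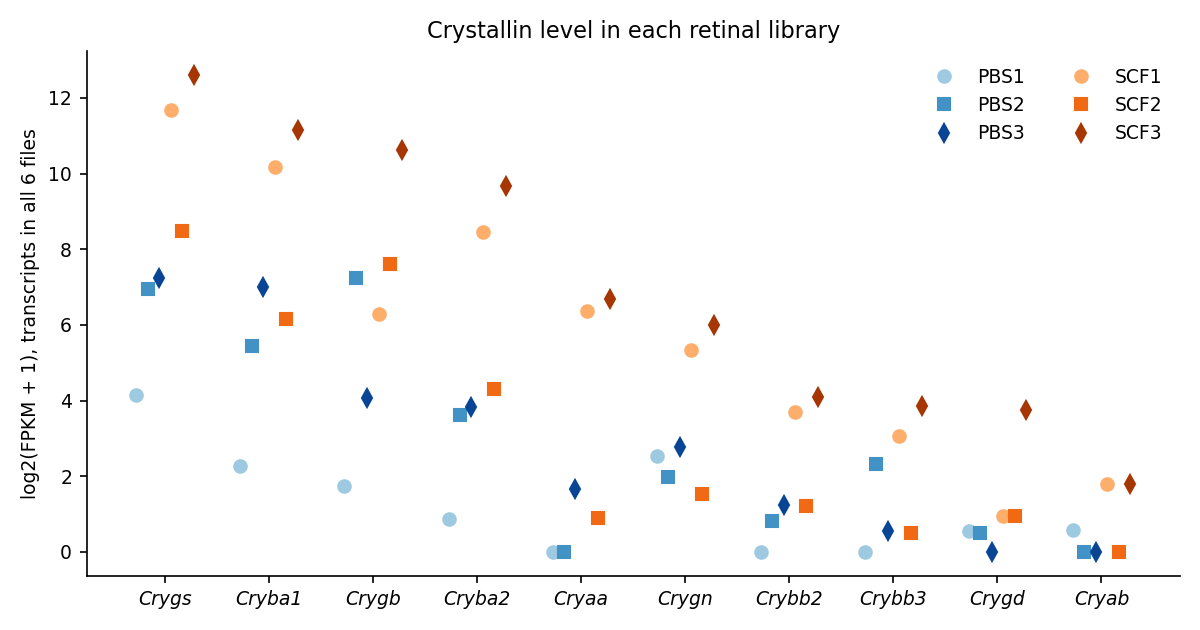
Each point is the summed FPKM of a member in 1 library, over transcripts listed in all 6 files, on a log2(FPKM + 1) axis. Points of SCF1 and SCF3 are the highest for most members, and Crygb is an exception, with SCF1 at 76.4 FPKM below PBS2 at 150.7 FPKM.

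Among the γ-crystallins, Crygs was the most abundant. It encodes γS-crystallin, the γ-crystallin that continues to be made in the adult lens. Crygs-201 had 16.6, 121.8 and 149.8 FPKM in PBS1, PBS2 and PBS3, from 40, 343 and 471 fragments. In SCF1, SCF2 and SCF3 it had 3273, 354.3 and 6280 FPKM, from 7940, 873 and 15377 fragments. All NMDA + SCF libraries were above all NMDA + PBS libraries, with a fitted log2 difference of 4.82 ± 1.17 (SE). It ranged from 3.83 with PBS1 omitted to 6.04 with SCF2 omitted.

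Crygb-201 (chr1:65080219-65082288, minus strand) encodes γB-crystallin, of the γA to γF group made in the fibers of the young lens. It had 5, 380 and 44 fragments in PBS1, PBS2 and PBS3, and 166, 425 and 3475 in SCF1, SCF2 and SCF3. The groups overlapped, since PBS2 lay above SCF1. Its fitted log2 difference was 3.82 ± 1.495 (SE), and it ranged from 2.52 with PBS1 omitted to 5.27 with PBS2 omitted.

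Crygd, which encodes γD-crystallin of the same group, had its coding transcript in list A only. Crygd-201 (chr1:65061872-65063452, minus strand) had 2.88 FPKM in PBS1, from 6 fragments. It had 38.6, 159.4 and 870.3 FPKM in SCF1, SCF2 and SCF3, from 81, 340 and 1845 fragments. The NMDA + PBS group is thus represented by a single library. The retained-intron form Crygd-202, the only one in both lists, had at most 2 fragments outside SCF3, where it had 27.

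Crygn encodes γN-crystallin, which shares features of the β- and γ-crystallins. Crygn-201 (chr5:24751003-24758008, minus strand) had 2, 9 and 6 fragments in PBS1, PBS2 and PBS3, and 94, 5 and 155 in SCF1, SCF2 and SCF3. SCF2 fell within the range of the NMDA + PBS group. The short form Crygn-202 had 0 to 4 fragments in every library.

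The γB and γD transcripts share stretches with other γ-crystallin genes, and this limits their counts. Aligned end to end, Crygb-201 and Crygd-201 were identical at 75.2% of positions, against 52.9% for Crygb-201 and Crygs-201. The longest run that Crygb-201 and Crygd-201 share was 34 bases. Of the 100-base stretches of Crygb-201, 22.8% also occurred in Crygc, and 15.8% of those of Crygd-201 occurred in Cryge. Neither Crygc nor Cryge had a row under its symbol in the files used here, so fragments from them may be counted with Crygb and Crygd. Crygs-201, Crygn-201, Cryba1-201 and Cryba2-201 shared no 100-base stretch with another gene.

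Cryba1 and Cryba2 were the leading β-crystallins. Cryba1-201 (chr11:77718627-77725283, minus strand) had 10, 132 and 437 fragments in PBS1, PBS2 and PBS3, and 3020, 190 and 5979 in SCF1, SCF2 and SCF3. SCF2 was below PBS3, so the groups overlapped. Its fitted log2 difference was 4.24 ± 1.501 (SE), and it ranged from 2.92 with PBS1 omitted to 5.73 with SCF2 omitted.

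Cryba2-201 (chr1:74889934-74893143, minus strand) had 0.816, 10.8 and 12.2 FPKM in PBS1, PBS2 and PBS3. It had 322.7, 18.4 and 767.0 FPKM in SCF1, SCF2 and SCF3. The groups did not overlap, and the fitted log2 difference was 4.68 ± 1.35 (SE). It ranged from 3.59 with SCF3 omitted to 6.25 with SCF2 omitted.

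Crybb2 and Crybb3, which encode β-crystallins of the basic group, were low. Crybb2-204, a processed transcript (chr5:113068692-113069494, minus strand), had 0, 2 and 4 fragments in PBS1, PBS2 and PBS3, and 25, 3 and 28 in SCF1, SCF2 and SCF3. Only SCF1 and SCF3 stood above 4 fragments. The retained-intron form Crybb3-211 had 0, 8 and 3 fragments against 28, 2 and 51 in the same order.

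The α-crystallins made up the smallest part of the counted member FPKM, with no coding transcript in both lists. Cryaa-204, the unspliced span, had 0, 0 and 9 fragments in PBS1, PBS2 and PBS3, and 262, 4 and 340 in SCF1, SCF2 and SCF3. Cryaa-202 and Cryaa-205, both with a retained intron, had 17 and 37 fragments in SCF1 and 27 and 34 in SCF3. They had at most 2 in any other library. The coding Cryaa-201 and Cryaa-206 stood in list B only, with 1 fragment between them. Cryab, the αB-crystallin that retina and many other tissues also make, had at most 5 fragments of Cryab-204 in a library.

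Set against all transcripts, no member was called. A fold change of at least 2 together with an adjusted p of 0.001 was met by no transcript (0% of 45261 transcripts tested, limma with Benjamini-Hochberg adjustment), and at an unadjusted p of 0.05 there were 3612 (7.98%), 11 of the 18 member transcripts among them. Without PBS1, 278 transcripts were called, 0 of the 18 members among them. The NMDA + SCF group lay above the NMDA + PBS group without overlap for 4 of the 18, Crygs-201, Cryba2-201, Cryba1-202 and Crygd-202, against 6.32% of all transcripts. For 15 of the 18, SCF1 and SCF3 stood above every other library, against 6.69%. The median log2 difference was 2.37 over the 18 members, and -0.03 over all transcripts. For the 3 members at 0 in every NMDA + PBS library, Cryaa-202 was also set to its bound against a floor of 3 fragments per library, and Crybb2-202 and Crybb2-203, under that floor, to 0, which gave a median of 2.43. Nothing is read from these counts, since this contrast chose the genes.

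By family, the make-up was more even than the level. The γ-crystallins took 73.1% ± 16.2 (SD, n = 3) of member FPKM after PBS and 74.9% ± 9.44 (SD, n = 3) after SCF. The β-crystallins took 26.1% ± 16.4 and 24.2% ± 8.72, and the α-crystallins 0.800% ± 0.865 and 0.911% ± 0.768. The transcript lists limit the α-crystallin share, since no coding α-crystallin transcript stood in both. List A, used for all NMDA + SCF libraries, held no coding Cryaa transcript. The γ-crystallin share leaves out the coding Crygd-201, which stood in list A only. Over all list A transcripts, γ-crystallins took 84.1% in PBS1 and 68.1, 88.5 and 73.4% in SCF1, SCF2 and SCF3. For every family the difference between the groups was smaller than the spread between libraries of a group.

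**Figure D2:**
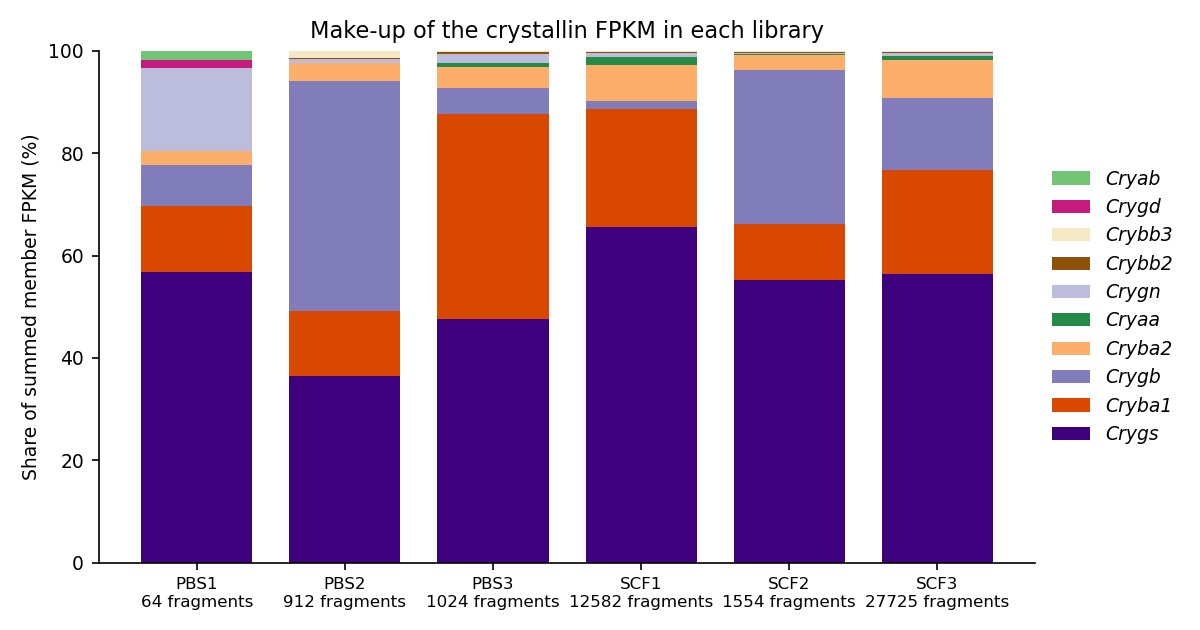
Each bar is 1 library, divided into the share of summed member FPKM (%) that each of the 10 members takes, with the number of member fragments under it. Crygs takes between 36.4 and 65.5%, and the share of Crygb ranges from 1.53% in SCF1 to 45.03% in PBS2.

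Crygs was first in 5 of 6 libraries. Its share was 56.8, 36.4 and 47.5% in PBS1, PBS2 and PBS3, and 65.5, 55.2 and 56.4% in SCF1, SCF2 and SCF3. Over all list A transcripts, which include Crygd-201, it was 51.7% in PBS1 and 65.0, 44.1 and 52.2% in SCF1, SCF2 and SCF3. In PBS2 Crygb came first, with 45.03%. By fragments, where no division by length enters, Crygb had 41.7% there (95% Wilson interval 38.5 to 44.9) and Crygs 37.6% (34.5 to 40.8). These intervals, here and below, cover counting error only.

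Crygb was the member whose share moved most among the leading genes. By fragments it held 1.32% (1.13 to 1.53) in SCF1, 27.3% (25.2 to 29.6) in SCF2 and 12.5% (12.1 to 12.9) in SCF3. After PBS it held 7.81% (3.38 to 17.0), 41.7% and 4.30% (3.22 to 5.72). High and low shares occurred in both groups, and the intervals of the 3 NMDA + SCF libraries did not meet.

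Cryba1 showed another order. It held 40.2% of member FPKM in PBS3, and between 11.0 and 23.1% in the other libraries. Cryba2 stayed between 2.79 and 7.29% throughout. Crygn took 16.3% in PBS1, which rests on 5 fragments, and at most 1.85% elsewhere.

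Ratios to Crygs-201 within a library show the same pattern free of the overall level. Crygb-201 over Crygs-201 was 0.140, 1.24 and 0.104 in PBS1, PBS2 and PBS3, and 0.0233, 0.544 and 0.252 in SCF1, SCF2 and SCF3. The highest was 53.0 times the lowest. For Cryba1-201 the range was 0.198 to 0.844 (4.26 times), and for Cryba2-201 it was 0.0492 to 0.122 (2.48 times). Both β-crystallins thus kept closer to Crygs than Crygb did.

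**Figure D3:**
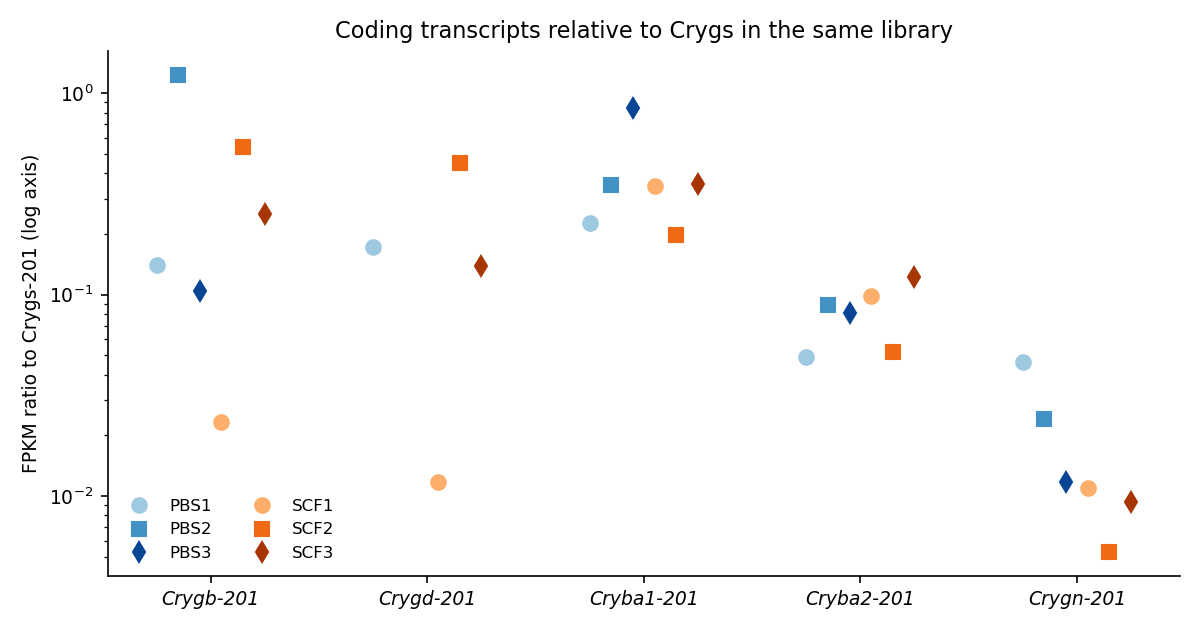
Each point is the FPKM of a coding transcript divided by that of Crygs-201 in the same library, on a log axis. Cryba2-201 spans 2.48 times over 6 libraries, Crygb-201 spans 53.0 times, and Crygd-201, present in the 4 list A libraries only, spans 38.2 times.

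Crygd-201 kept closer to Crygb-201 than to Crygs-201 in the 4 list A libraries, of which only PBS1 is NMDA + PBS. Its ratio to Crygb-201 was 1.24 in PBS1, from 6 over 5 fragments, and 0.505, 0.827 and 0.549 in SCF1, SCF2 and SCF3. That is a range of 2.46 times, with the highest value the least precise. Its ratio to Crygs-201 in the same libraries ranged from 0.0118 to 0.450. Over all list A transcripts, Crygb and Crygd together held 44.1% of member FPKM in SCF2 and 2.32% in SCF1. The part of the stretches shared with Crygc and Cryge in this was not tested.

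The letters just upstream of the start site were read for members whose ratios to each other ranged little or much between libraries. The 60 bases before the RefSeq start (GRCm38.p6, gene strand) are shown, with TATATA or TATAAA in capitals, the forms of the TATA box that were searched on the gene strand. Crygb spans chr1:65082291-65082350, Crygd chr1:65063441-65063500, Crygs chr16:22811411-22811470 and Cryba1 chr11:77725294-77725353, all on the minus strand.
Crygb: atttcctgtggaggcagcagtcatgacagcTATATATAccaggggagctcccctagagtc
Crygd: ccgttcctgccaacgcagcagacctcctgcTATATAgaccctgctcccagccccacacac
Crygs: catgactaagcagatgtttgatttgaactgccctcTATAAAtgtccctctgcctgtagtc
Cryba1: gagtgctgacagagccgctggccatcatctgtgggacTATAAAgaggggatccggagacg
TATATA began 30 bases before the start in Crygb, Crygd and Crygn and 29 before it in Cryaa, and TATAAA began 25 before it in Crygs and 23 in Cryba1. In Crygb the capitals are 2 overlapping matches. Neither run of letters was found in these windows of Cryba2, Crybb2 and Crybb3. Over all 32851 promoters of the table, 4.06% held either run in the same window. A match of letters is a description and not a shown binding site.

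Forms other than spliced coding transcripts took 3.10, 0.692 and 2.03% of member FPKM in SCF1, SCF2 and SCF3. In PBS2 and PBS3 they took 1.72 and 2.93%. The value in PBS1, 17.0%, rests on 5 fragments. In the libraries other than PBS1, nearly all crystallin FPKM thus came from the coding transcripts of a few genes. For Cryaa, Cryab, Crybb3 and Crygd the transcript lists alone set these shares at 100%, since no coding transcript of theirs stands in both. Over all transcripts of a file, Cryab had 2 coding fragments and 0 others in SCF2, against 1 and 5 in SCF1 and in SCF3.

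**Figure D4:**
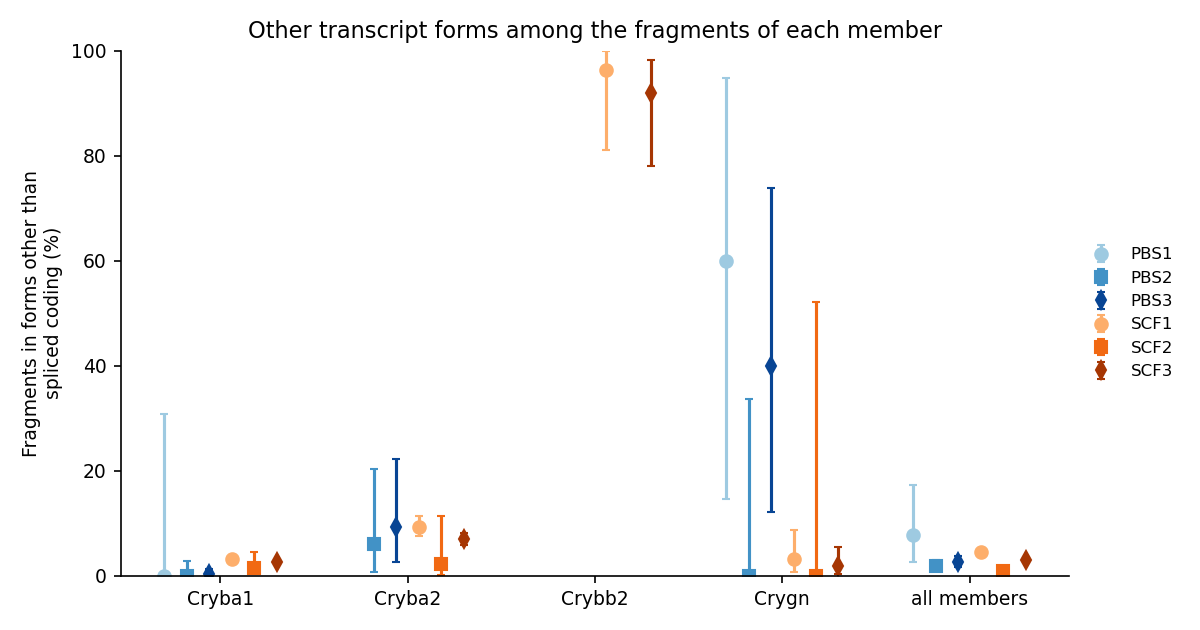
Points give the percent of a member's fragments that were counted in forms other than spliced coding transcripts, with exact 95% binomial intervals, for libraries with at least 5 fragments of that member. Cryba1 and Cryba2 have no point above 9.34%, whereas Crybb2 lies at 96.3% in SCF1 and 91.9% in SCF3. For Crybb2, only 1 of the 2 coding transcripts of M21 is listed.

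For Cryba1, the retained-intron form Cryba1-202 had 0, 0 and 1 fragments in PBS1, PBS2 and PBS3, and 101, 3 and 159 in SCF1, SCF2 and SCF3. Its share of Cryba1 fragments was 3.24% (exact 95% interval 2.64 to 3.92) in SCF1 and 2.59% (2.21 to 3.02) in SCF3. In SCF2 it was 1.55% (0.322 to 4.48), and in PBS3 it was 0.228% (0.00578 to 1.27). The interval of PBS3 lay below those of SCF1 and SCF3 and overlapped that of SCF2. In PBS1 and PBS2, with 0 of 10 and 0 of 132 Cryba1 fragments, the upper limits were 30.8 and 2.76%.

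For Cryba2, the decay target Cryba2-202 had 0, 2 and 4 fragments in PBS1, PBS2 and PBS3, and 82, 1 and 142 in SCF1, SCF2 and SCF3. Its share of Cryba2 fragments was 9.34% (7.497 to 11.5) in SCF1, 6.92% (5.86 to 8.11) in SCF3 and 9.30% (2.59 to 22.1) in PBS3. These intervals overlap. Of the 100-base stretches of Cryba2-202, 18.8% also occur in the coding form, against 36.2% for Cryba1-202.

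Among its listed transcripts, Crybb2 was counted almost wholly outside Crybb2-202, the only coding form listed. M21 annotates 2 coding transcripts for Crybb2, and the other stands in neither list. The shares below therefore leave it out, and its part in them was not tested. Crybb2-202 had 1 and 3 fragments in SCF1 and SCF3 and 0 elsewhere, where the processed transcripts Crybb2-203 and Crybb2-204 together had 26 and 34. That is 96.3% (81.0 to 99.9) and 91.9% (78.1 to 98.3) of the Crybb2 fragments counted in listed transcripts. These processed transcripts share no 100-base stretch with a coding form, and 86.9 and 87.7% of their bases lie in introns of Crybb2-202.

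Crybb3 and Cryaa had no coding transcript in both lists. In list A, the coding Crybb3-201 had 0, 1, 0 and 2 fragments in PBS1 and SCF1, SCF2 and SCF3. Crybb3-211, of which 72.2% lies in introns of Crybb3-201, had 28 and 51 in SCF1 and SCF3. With Cryaa-204 counted as coding, as M21 names it, other forms would take 28.9 and 26.6% of Cryaa FPKM in SCF1 and SCF3, in place of 100%.

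The primer pairs of the study's qPCR were placed on these forms, because they show which of the listed transcripts such an assay could read. Pairs for 9 of the members were matched, none of them for Crygd. The pairs of Crygb, Cryba1, Cryba2 and Crybb2 are given 5′ to 3′, forward then reverse.
Crygb forward: cgattgtctctctcttcagga
Crygb reverse: agctaggcatctcatagagaac
Cryba1 forward: tggctcagaccaacccta
Cryba1 reverse: tcttgccctggaagttctc
Cryba2 forward: ctgtgccaacgtctgtga
Cryba2 reverse: gaagtcggggtactcgaag
Crybb2 forward: acctgaaggagactggtatg
Crybb2 reverse: gcaattagcctgctcgtag
The Cryba1 pair gives a product of 81 bases on Cryba1-201 and none on Cryba1-202. The Cryba2 pair lies on both of its forms, with products of 94 bases on the coding form and 274 on the decay target. The Crybb2 pair gives 83 bases on Crybb2-202 and does not lie on Crybb2-203 or Crybb2-204, which held most counted Crybb2 fragments. It also lies on Crybb2-201, which is coding, and Crybb2-205, both in neither list. The Crybb3 pair gives 80 bases on the coding Crybb3-201 and also on Crybb3-211, the form with most counted Crybb3 fragments in SCF1 and SCF3.

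For the α-crystallins the primers and the fragments met in different places. The Cryaa pair lies at chr17:31679570-31679653, within the coding Cryaa-201 and Cryaa-206 of list B and within Cryaa-202 and Cryaa-205. It also lies on Cryaa-204 as M21 places it, but beyond the end of the unspliced span counted here. That span had 262 of the 316 Cryaa fragments in SCF1. The Cryab pair lies on the coding Cryab-201 and Cryab-206 but not on Cryab-204, the form in all 6 files. It also lies on the coding Cryab-202, Cryab-203 and Cryab-205, which stand in neither list. The pairs of Crygs and Crygn gave products of 82 and 85 bases on the coding transcript.

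The Crygb pair was compared with Crygd-201, its nearest member. It was not compared with Crygc, which shares 100-base stretches with Crygb-201, so whether the pair also reads Crygc was not tested. Capitals mark the bases that differ, and the reverse primer site is written on the transcript strand. Each Crygd line shows the best match of that primer anywhere on Crygd-201, searched for each primer alone.
Crygb forward site: CgaTtgTcTctctctTcagga
Crygd at that site: GgaCtgCcCctctctCcagga
Crygb reverse site: GtTctctatgagATgccTaGct
Crygd at that site: AtGctctatgagCAgccCaAct
The best match on Crygd-201 had 5 mismatches over 21 bases for the forward primer and 6 over 22 for the reverse. The forward match began at base 371 of Crygd-201, and the reverse match at base 180, upstream of it. In that order the matches bound no product. The reverse line does not show the place in Crygd that corresponds to the Crygb site.

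The other crystallins added little. Cryba4-202 had 2 and 4 fragments in SCF1 and SCF3 and 0 elsewhere, and Crybb1-201, in list A only, had the same counts. Cryga, Crygc, Cryge and Crygf had no row under their symbols. Among the enzymes with crystallin names, Crym, a thyroid hormone binding protein, had 130.4, 265.0 and 52.4 FPKM in PBS1, PBS2 and PBS3 and 154.0, 327.9 and 292.9 FPKM in SCF1, SCF2 and SCF3. The library order of Crym differed from that of the members, and the groups overlapped. Cryz, Cryl1 and Cryzl1 had at most 8.83 FPKM in a library, and Cryzl2 had no transcript in all 6 files.

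Most lens fiber markers, but not all, stood highest in SCF1 and SCF3. Of 17 listed, 12 had transcripts in all 6 files, and they summed to 18.6, 29.95 and 35.8 FPKM in PBS1, PBS2 and PBS3 and to 603.2, 42.8 and 933.0 FPKM in SCF1, SCF2 and SCF3. SCF1 and SCF3 were highest for 8 of the 12. The exceptions were Tdrd7, Mafa, Prox1 and Hspb1. Tdrd7 had 10.3, 11.0 and 8.10 FPKM in PBS1, PBS2 and PBS3 and 4.57, 2.37 and 6.83 FPKM in SCF1, SCF2 and SCF3. Mafa had between 1.81 and 7.03 FPKM in every library, Prox1 was above 0 in PBS2 and PBS3 only, and Hspb1 in PBS2 and SCF2 only. Of the defining fiber genes, Mip, a membrane channel, had 0.411, 0.938 and 9.24 FPKM in PBS1, PBS2 and PBS3. In SCF1, SCF2 and SCF3 it had 203.0, 7.10 and 299.1 FPKM. Lim2 had at most 0.134 FPKM outside SCF3, where it had 1.59 FPKM.

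The 5 lens epithelium markers summed to between 20.4 and 49.2 FPKM after PBS and to 114.6, 31.9 and 90.7 FPKM in SCF1, SCF2 and SCF3. Pax6, which retinal cells also express, made up most of the sums after PBS, with 20.2, 48.5 and 38.2 FPKM, and had 42.4, 30.4 and 36.0 FPKM after SCF. Foxe3, a lens epithelial transcription factor, stood at 0 in PBS1, PBS2 and PBS3 and at 62.3, 0.331 and 41.7 FPKM in SCF1, SCF2 and SCF3. Gja1 had at most 0.0859 FPKM in a library.

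Other tissues next to the retina were read in the same way. For ciliary body and iris, 6 of 7 markers had transcripts in all 6 files. They summed to 13.0, 16.1 and 15.7 FPKM in PBS1, PBS2 and PBS3 and to 23.7, 23.1 and 30.1 FPKM in SCF1, SCF2 and SCF3, so these sums did not overlap. The NMDA + SCF group was higher without overlap for 4 of the 6, against 6.32% of all single transcripts. Zic1 overlapped. Opcml was lower after SCF, with 2.95, 2.66 and 3.26 FPKM after PBS and 2.30, 2.11 and 2.60 FPKM after SCF. For cornea, 2 of 4 markers summed to 11.7, 15.1 and 43.5 FPKM after PBS and to 2.96, 5.37 and 12.0 FPKM after SCF. The 4 pigment epithelium markers summed to 796.5, 368.2 and 190.8 FPKM after PBS and to 708.8, 935.4 and 842.9 FPKM after SCF. Nearly all of this was Ttr, with 778.8, 356.4 and 176.1 FPKM after PBS and 694.1, 918.9 and 827.1 FPKM after SCF. Rpe65, Best1 and Lrat had at most 15.7 FPKM in a library. For cornea and for pigment epithelium, the sums of the groups overlapped. Retinal markers summed to between 3508 and 5283 FPKM over all libraries, so retinal identity was present in each. The largest part was Glul, at 1960 to 3899 FPKM. The part of lens cells or of these other tissues in the crystallin values was not tested.

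The 10 other genes whose log2(FPKM + 1) was most like the summed members over the 6 libraries were Grifin, Cdh5, R3hdml, Slc4a5, Exoc6b, 2310061I04Rik, Ppl, Ogn, Gnb4 and Gm8615. Grifin, a lens galectin-related protein, was first with r = 0.994 over n = 6 libraries. It had 0, 8.20 and 8.45 FPKM in PBS1, PBS2 and PBS3, and 292.8, 15.5 and 457.5 FPKM in SCF1, SCF2 and SCF3, the same highest libraries as the members. The other 9 had r between 0.956 and 0.987, and Cdh5, an endothelial cadherin, moved only from 6.76 to 8.69 FPKM. These likenesses are a description over libraries of both groups, which differ in depth and in transcript list.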

How the data were processed

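The authors selected mRNA of the retinas with oligo(dT), sequenced the libraries by HiSeq and deposited FPKM values for the transcripts of each library, not pooled. The aligner and counter are not given in the sources used here. The submitters' processing notes name build mm9, but 98.2% of 63313 Ensembl transcripts stood at their GENCODE M21 (GRCm38) positions, so GRCm38 is used. Clean reads per library ranged from 44925938 to 48783182, and counted fragments were 14.1 to 18.2% of the pairs. The 6 other columns of the table of totals were not used.

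Rows were taken by gene symbol for the 10 members. FPKM times transcript length gave whole fragments (within 0.05, or the rounding of the file) for 99.5% of values above 0. Where the position in a file differed from M21, the length was that of the M21 exons within the file's span, or else the whole span, whichever gave whole numbers. Intervals are 95% and cover counting error only. Transcripts in all 6 files were fitted on log2(FPKM + 1) with limma 3.58.1 in R 4.3.3 (condition only, variance trend). A run on simulated data checked the code only, since its spread was not that of these libraries. A call needed a 2-fold difference and an adjusted p no higher than 0.001, the thresholds of the study's methods. Tables and plots used Python 3.11.15. Promoters come from RefSeq and primers from the study's supplement. The genes named are the members, the other crystallins and crystallin-named enzymes, the marker lists as counts and ranges, and the 10 genes most alike among those reaching 5 FPKM. The members and lists were chosen with earlier results of these data known. Alternatives were a pseudocount of 0.1, a filter on low values, upper quartile scaling, gene sums, a replicate block, each library left out, and, for shares, other sets of transcripts and recovered fragments.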

Additional observations from a re-analysis of the deposited data

How the results depend on the processing

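The count of called transcripts stayed at 0 under a pseudocount of 0.1, a filter at 1 FPKM in 3 libraries, upper quartile scaling, gene sums and the replicate block, where 2131 to 3560 features had an unadjusted p of at most 0.05 (limma). Leaving out a library gave 0 to 278 calls, the 278 without PBS1, the only list A library of its group. No pairing by replicate number was detected (correlations of deviations -0.0332, -0.0341 and -0.0603), which cannot show whether same-numbered libraries were handled together. The replicate block gave 0 calls and the same median member difference of 2.37. That median was 3.68 with a pseudocount of 0.1, and 1.74 to 3.62 with a library left out. Of 172 values of single transcripts under an alternative, 3 had the other sign, all of them for Crygn-202, which was near 0. Without Crygs, the member with the largest share, the shares after PBS and SCF were 1.76 and 2.42% for α-crystallins, 49.9 and 61.3% for β-crystallins and 48.3 and 36.3% for γ-crystallins. With coding forms only, the α-crystallin share was 0% in both groups, since no coding α-crystallin transcript stood in both lists. With a library left out, the shares after PBS ranged from 0.341 to 1.20% (α), 16.6 to 31.3% (β) and 68.4 to 82.5% (γ), and those after SCF from 0.532 to 1.30%, 21.004 to 29.1% and 69.6 to 78.5%. All listed transcripts and recovered fragments in place of FPKM moved each share by less than its spread. Counting Cryaa-204 as coding, an alternative chosen after seeing the data, set other forms of Cryaa at 0 to 29.0% of its FPKM in place of 100%. Low counts limit PBS1 most, with 64 member fragments. Its depth, 3404334 counted fragments, was close to that of the NMDA + SCF libraries, with 3426324 to 3479957.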
